A study of Mus musculus with 66 samples.

Results

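The basal squamous keratins described here are the genes Krt5, Krt14, Krt15 and Krt17, chosen by their symbols in the deposited expression table, where they are 4 of 30452 genes with values. Their levels were followed in bulk RNA sequencing of 66 tissue samples from 19 C57BL/6 mice, all bought at 6 weeks of age. The control mice were uninjured and were dissected at day 0 (4 mice). All other mice belonged to a cohort given 3% DSS (dextran sulfate sodium), which damages the lining of the colon, for 6 days from day 0, and were dissected at day 3, 6, 9, 14 or 20 (3 mice per day), so mice of day 3 had not completed the course. Each mouse gave a sample of mid-colon, rectum and anus (19 samples of each). The 9 mice of days 9, 14 and 20 also gave a sample of squamous neo-epithelium, a squamous lining labelled as its own section. Per the study's design text, muscle was removed from each section before RNA was extracted. Each mouse was seen on 1 day only, so changes over time are differences between animals.

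Keratins form filaments as obligate pairs of a type I and a type II protein. Krt5 is the type II keratin, and Krt14 the main type I partner, of the cells that rest on the basement membrane in stratified squamous epithelia such as epidermis and anal lining. Krt15 is another type I basal keratin, known from quiescent basal cells and the hair follicle bulge, and Krt17 is a type I keratin of hair follicles and of wounded epidermis. The colon is lined by a simple epithelium that uses other keratins, such as Krt8 and Krt19.

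All 4 genes lie on the minus strand of build GRCm38 in the GENCODE M21 annotation. Krt5 (ENSMUSG00000061527) lies at chr15:101707070-101712898. The 3 type I genes sit together on chromosome 11, with Krt15 (ENSMUSG00000054146) at chr11:100131758-100135928, Krt14 (ENSMUSG00000045545) at chr11:100203162-100207548 and Krt17 (ENSMUSG00000035557) at chr11:100256217-100261029. Because the genes are related and the reads were 75 bases long, the coding sequences were aligned to see how far a read can tell them apart. The most similar 75-base stretch of the 3 type I genes, from the coding exons, is shown because it is where such a read carries least information. Capitals mark bases that differ from Krt14.
Krt14: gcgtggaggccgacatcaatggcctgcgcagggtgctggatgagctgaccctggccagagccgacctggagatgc
Krt15: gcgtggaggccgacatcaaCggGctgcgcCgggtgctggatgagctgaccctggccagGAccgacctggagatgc
Krt17: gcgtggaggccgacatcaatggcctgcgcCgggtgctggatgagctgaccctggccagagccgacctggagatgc
The stretch spans coding bases 656 to 730 of Krt14, 590 to 664 of Krt15 and 545 to 619 of Krt17. Krt17 differs from Krt14 there at 1 base and Krt15 at 5 bases. Over the aligned coding sequence Krt14 was 82.4% identical to Krt17 and 71.8% identical to Krt15, and the type II gene Krt5 was 56.0% identical to Krt14. The longest run shared by Krt14 and Krt17 was 71 bases, so no 75-base window of one member occurred whole in another member.

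Windows were shared with genes outside the group. Of the 1624 windows of the Krt14 coding transcript, 96 (5.91%) also occurred in Krt16, a wound keratin. Of the 2123 windows of Krt5, 110 (5.18%) occurred elsewhere, 100 of them in Krt6a, another wound keratin. Krt15 (1626 windows) and Krt17 (1477 windows) shared none. These shares do not measure an error of the levels. How far the division of such reads by the quantifier affected Krt5 and Krt14 was not tested.

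Abundance is given as TPM, the number of transcripts of a gene per 1000000 transcripts of the library after adjustment for length, so levels can be set side by side between genes. The files give no read counts and the depth of a sample is unknown. Between 11268 and 13789 genes reached 1 TPM in a sample. Adjusted p-values are from limma on log2(TPM + 1), with Benjamini-Hochberg adjustment over all genes tested in that comparison. A gene was called when the adjusted p was under 0.05. Fold changes are on the log2(TPM + 1) scale, which understates changes of low genes. In bulk samples, fewer cells of a type and less RNA per cell cannot be told apart.

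The labelled tissues were checked against defining genes. Summed over 11 genes of colonic epithelium, levels were 15100 to 33700 TPM in mid-colon and 10800 to 29000 TPM in rectum. In anus the sum was 48.5 to 6250 TPM, and in neo-epithelium 6.1 to 10000 TPM. The anal samples also held 6 skeletal muscle genes at a summed 1780 to 18000 TPM, against 2.63 to 12.3 TPM in neo-epithelium. Skeletal muscle RNA was thus present in anal samples despite the stated removal of muscle. Smooth muscle genes (5) were present in every section. They summed to 298 to 1370 TPM in mid-colon, 139 to 972 TPM in rectum, 112 to 3120 TPM in anus and 148 to 410 TPM in neo-epithelium. Hair follicle keratins (9 of 10 genes matched) summed to 5.41 to 1050 TPM in anus. In neo-epithelium they summed to 1.99 to 24.2 TPM, and Krt75, a keratin of the follicle's companion layer that was at 1.75 to 23.9 TPM, was the only one of the 9 at 1 TPM or more in any of those samples.

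In uninjured mice the basal keratins marked the anus and were low in the rectum of the same mice. Krt14 was at 1208, 2599, 2427 and 2609 TPM in the anus of mice 1 to 4 and at 25.3, 11.4, 22.6 and 7.16 TPM in their rectum. Krt5, its type II partner, was at 454, 1091, 1145 and 1088 TPM in anus and at 9.01, 3.29, 9.44 and 0.613 TPM in rectum. Both genes were lower in the anus of mouse 1 than in the other 3 mice, and the anal and rectal values were far apart in every mouse. Krt15 was at 584, 891, 981 and 795 TPM in anus and at 6.65, 3.55, 6.74 and 0.977 TPM in rectum. Krt17 was at 177, 630, 505 and 467 TPM in anus, with rectal values of 0.982, 0.428, 1.33 and 0.129 TPM. The anal sample of mouse 1 was thus the lowest for all 4 genes, and its hair follicle keratins summed to 5.41 TPM, against 287 to 759 TPM in mice 2 to 4. The part of hair follicle tissue in these levels was not tested.

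All 4 members were called higher in anus than in rectum at day 0, where 60.3% of the genes tested were called in one direction or the other and 25.9% were called higher. Krt5, Krt15 and Krt17 passed the filter on low values through their anal samples. The log2 difference was 7.93 ± 0.38 (SE, n = 4 mice per section, adjusted p = 1.74e-07) for Krt17, a 244-fold difference. It was 7.42 ± 0.56 (adjusted p = 3.46e-06) for Krt5, 7.38 ± 0.39 (adjusted p = 3.19e-07) for Krt15 and 7.06 ± 0.39 (adjusted p = 3.52e-07) for Krt14. Within the anus of day 0 Krt14 was the most abundant member in every mouse, with 48.0% to 52.6% of the summed TPM of the 4. Krt5 held 18.7% to 22.6%, Krt15 16.0% to 24.1% and Krt17 7.30% to 12.1%. Krt14 stood above the other 3 in every mouse, the shares of Krt5 and Krt15 overlapped, and the share of Krt17 was the lowest in every mouse.

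Mid-colon held next to none of these transcripts. Over its 19 samples Krt5 had a median of 0.170 TPM and a highest value of 0.797 TPM. The highest values of Krt15 and Krt17 there were 0.883 and 0.837 TPM, so neither reached 1 TPM in any mid-colonic sample. Krt14 differed from them in that it was at 1.55 to 11.1 TPM, with a median of 4.31 TPM. At day 0 Krt14 was the only member that passed the filter on low values for rectum against mid-colon, and it was higher in rectum by 1.62 ± 0.33 on the log2 scale (adjusted p = 0.0437). In that comparison 1.79% of the genes tested were called. The call did not survive several alternatives: the adjusted p was 0.0945 with no filter, 0.0959 with TMM factors, and 0.233, 0.224 and 0.141 without mouse 1, 2 or 3. Blocked by mouse it was 0.0175. Without mouse 4, whose rectum was the lowest for every member, Krt5 and Krt15 also passed the filter, through the rectal samples, and 3 members were called (Krt5 by 2.85, adjusted p = 0.0146, Krt14 by 2.02, adjusted p = 0.0236, and Krt15 by 1.99, adjusted p = 0.0182). That mouse is low for the members themselves, so these values describe the dependence and are not a second test.

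**Figure D1:**
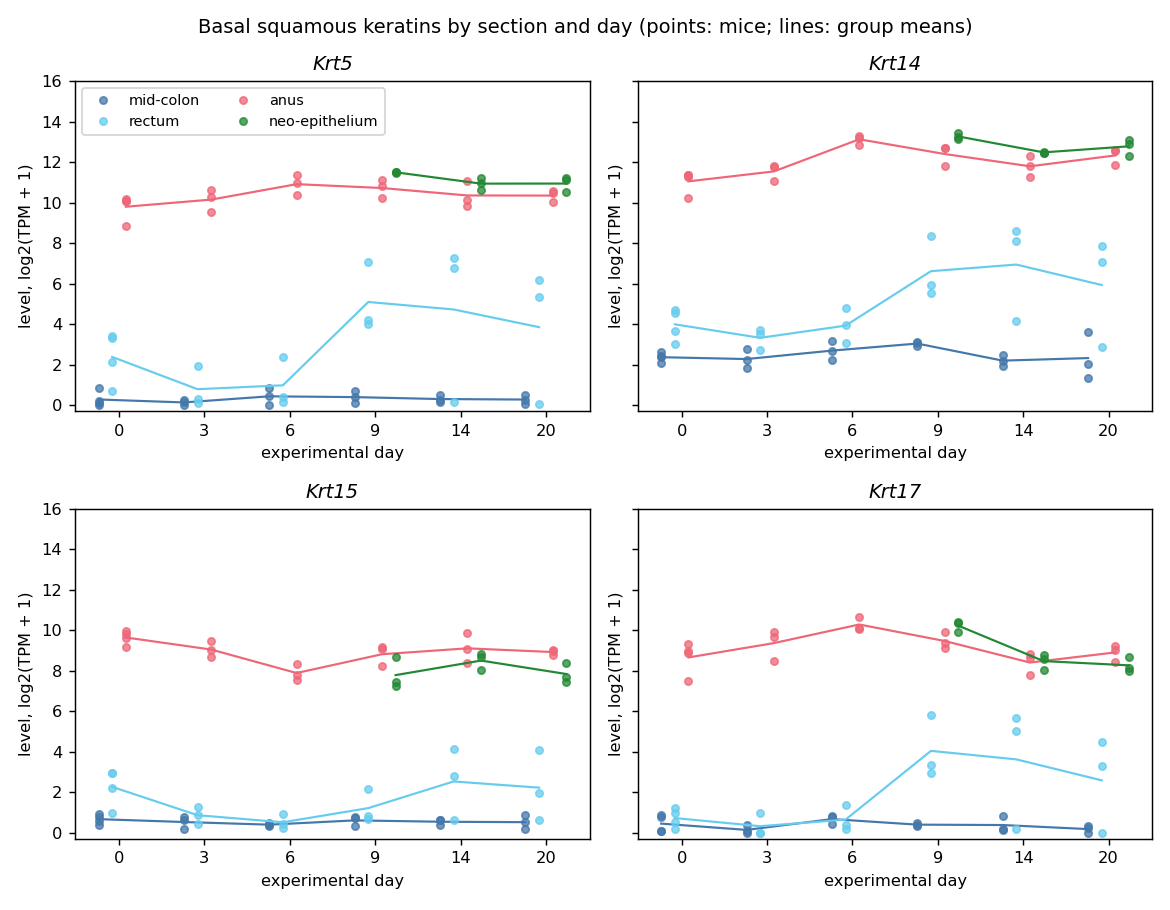
Levels of the 4 members on the log2(TPM + 1) scale (vertical axis) against experimental day (horizontal axis, evenly spaced), with 1 point per mouse, colour for section and lines through group means. Anus and neo-epithelium lie far above mid-colon at every day. The rectal points of days 9, 14 and 20 spread between these levels for Krt5, Krt14 and Krt17. There 1 mouse is low at day 14 and 1 at day 20. For Krt15 the same mice are low, and the rectal points of mice 12 and 13 at day 9 also lie at the level of mid-colon.

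In the anus at day 6, the end of DSS exposure, Krt14 and Krt17 rose and Krt15 fell. Krt14 was at 7417, 9489 and 10095 TPM in the 3 mice, all above the highest day 0 value of 2609 TPM. Its log2 change was 2.08 ± 0.29 (adjusted p = 0.00246), or 4.22-fold. Krt15 was at 222, 186 and 316 TPM, all below the lowest day 0 value of 584 TPM. It fell by 1.76 on the log2 scale (SE 0.23, adjusted p = 0.00215), to 0.296 of its day 0 level. Krt17 was at 1118, 1078 and 1590 TPM, above the day 0 range of 177 to 630 TPM, and rose by 1.62 ± 0.40 (adjusted p = 0.0278). The type II keratin Krt5 was at 1320, 2002 and 2659 TPM, also above its day 0 range, but its log2 change of 1.11 ± 0.36 was not called (adjusted p = 0.0753). Thus 3 of 4 members were called, 2 higher and 1 lower, against 15% of the genes tested in that comparison. The Krt17 call was lost with no filter (adjusted p = 0.0689) and without mouse 8, 9 or 10 (adjusted p = 0.0772, 0.0749 and 0.105).

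Other gene lists were read in the same anal samples. Of 11 basal layer and anchoring genes (integrins, laminin chains, hemidesmosomal and related genes), 1 rose and none fell at day 6 against day 0. The one was Trp63, the transcription factor p63 of basal cells, at 34.9 to 43.3 TPM against 18.1 to 28.8 TPM (log2 change 0.79 ± 0.19, adjusted p = 0.0262). The list's median log2 change was 0.18, against 0.07 over all genes tested. Of 12 suprabasal and wound keratins, 11 were tested, 2 rose and 2 fell. Krt6a, an inducible partner of wounded epithelium, was among those that rose (0.70 ± 0.20, adjusted p = 0.0464). All 6 simple epithelial and transition zone keratins fell, among them Krt8 by 5.83 on the log2 scale (SE 0.66, adjusted p = 0.00105). The 11 colonic epithelium genes went from a summed 1570 to 4730 TPM at day 0 to 51.8 to 102 TPM at day 6, and 5 neutrophil and leukocyte genes from 347 to 1370 TPM to 1350 to 3810 TPM. The part of these changes in the members' levels was not tested.

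On the other days no anal value of the members was called. At day 3 the call rate over all genes was 0.044%, and 1 member, Krt15, had an unadjusted p under 0.05. Krt15 was then at 407, 511 and 704 TPM and Krt14 at 2130, 3572 and 3455 TPM, ranges that overlapped those of day 0. At day 9 5.09% of genes were called. Krt14 stood at 3583, 6611 and 6610 TPM, all above day 0, with a log2 change of 1.35 ± 0.33 (adjusted p = 0.0548), and Krt15 at 567, 302 and 530 TPM (−0.83 ± 0.26, adjusted p = 0.123). At that day 3 members had an unadjusted p under 0.05 in limma. Krt14 was called at day 9 with TMM factors (adjusted p = 0.0442), without mouse 1 (1.08, adjusted p = 0.0465) and on its coding transcript alone (1.67, adjusted p = 0.0108). Mouse 1 was the lowest day 0 sample for Krt14, so the value without it describes the dependence and is not a second test.

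At day 14, where 4.27% of genes were called, no member had even an unadjusted p under 0.05. Krt14 was at 4998, 3591 and 2468 TPM and Krt15 at 937, 540 and 328 TPM, and mouse 16 was the lowest for all 4 members. At day 20, where 1.46% of genes were called, Krt14 was at 3696, 5906 and 6213 TPM (1.28 ± 0.31, adjusted p = 0.0888) and Krt15 at 502, 519 and 437 TPM (−0.72 ± 0.19, adjusted p = 0.104). Both had an unadjusted p under 0.05 and neither range overlapped that of day 0. Krt15 was called at day 20 without mouse 1 (−0.87, adjusted p = 0.0387), and Krt14 on its coding transcript alone (1.96, adjusted p = 0.0174). As mouse 1 was the lowest day 0 sample for Krt15, the value without it is likewise not a second test. Krt17 had returned to 350, 593 and 528 TPM, inside its day 0 range.

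**Figure D2:**
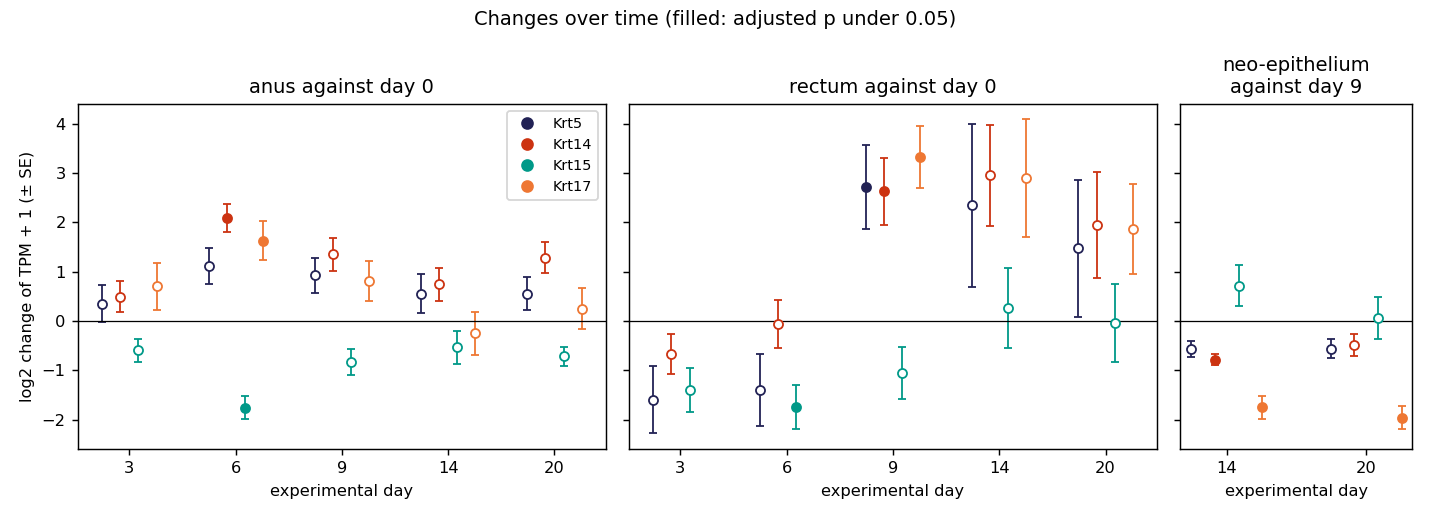
Log2 change of TPM + 1 with its standard error (vertical axis) by experimental day (horizontal axis) against day 0 in anus and rectum and against day 9 in neo-epithelium, with colour for the member and filled points for an adjusted p under 0.05. In anus at day 6 Krt14 lies at 2.08 and Krt15 at −1.76, and in neo-epithelium Krt17 lies at −1.75 and −1.96 at days 14 and 20. Krt17 was not tested in rectum at days 3 and 6.

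In the rectum, members were low through day 6 and then appeared in most but not all mice. At day 3 Krt5 was at 0.233, 2.84 and 0.0732 TPM, and at day 6 at 0.314, 0.112 and 4.18 TPM. Krt15 was at 0.844, 1.40 and 0.362 TPM at day 3 and at 0.173, 0.332 and 0.871 TPM at day 6. Neither gene exceeded its day 0 range on these days, and the rectum of mouse 4 was the lowest day 0 sample for every member. The low values left 3 of 4 members tested on each day, without Krt17. None was called at day 3 (6.62% of all genes called), although 2 had an unadjusted p under 0.05 in limma. At day 6 Krt15 was called, with a log2 change of −1.75 ± 0.45 (adjusted p = 0.0135), where 48.7% of all genes were called. Krt15 passed the filter there through its day 0 samples alone, and without mouse 1, 2 or 3 it was not tested. Without mouse 4, Krt15 was called at day 3 (−1.83, adjusted p = 0.00854) and Krt5 at day 6 (−1.96, adjusted p = 0.0349). That mouse is low for the members themselves, so these 2 values describe the dependence and are not a second test.

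At day 9 rectal Krt14 was at 323, 60.5 and 45.9 TPM, all above the highest day 0 value of 25.3 TPM. Krt5 was at 131, 15.3 and 17.4 TPM and Krt17 at 55.7, 9.22 and 6.70 TPM, again above every day 0 sample. Krt17 passed the filter through the day 9 samples. Mouse 11 was the highest for all 3 genes. The log2 changes were 3.32 ± 0.63 for Krt17 (adjusted p = 0.00211), 2.63 ± 0.67 for Krt14 (adjusted p = 0.00982) and 2.71 ± 0.86 for Krt5 (adjusted p = 0.0254). Without mouse 11 the changes were 2.42 (adjusted p = 0.000381), 1.76 (adjusted p = 0.0125) and 1.74 (adjusted p = 0.0697). The Krt5 call was also lost without mouse 2 (adjusted p = 0.0552) or mouse 4 (adjusted p = 0.0522), and with no filter (adjusted p = 0.0634). Krt15 did not follow the others: it was at 3.44, 0.618 and 0.744 TPM, within the range of or below day 0 (−1.05 ± 0.53, adjusted p = 0.128). It was called lower without mouse 4 (−1.48, adjusted p = 0.0197) or mouse 11 (−1.52, adjusted p = 0.0404) and on its coding transcript alone (−1.26, adjusted p = 0.0442). For Krt15, mouse 4 was the lowest sample of day 0 and mouse 11 the highest of day 9. The values without them therefore describe the dependence and are not a second test. So 3 of 4 members were called higher, where 53.5% of all genes were called and 33.5% were called higher.

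The change of Krt17 at day 9 was also larger in rectum than in mid-colon by an interaction term of 3.37 ± 0.73 on the log2 scale (adjusted p = 0.0113). It was the only member called there, and 6.55% of genes were called. Krt5, Krt15 and Krt17 passed the filter there through rectal samples, as none of them reached 1 TPM in mid-colon. Krt17 passed only because of the rectal samples of day 9, where it was high, so its term is not a second test of the rectal rise. The interaction terms were 2.60 ± 0.97 for Krt5 (adjusted p = 0.152), 1.95 ± 0.75 for Krt14 (adjusted p = 0.165) and −0.99 ± 0.61 for Krt15 (adjusted p = 0.432). With a pseudocount of 0.1 the Krt17 call was lost (4.35, adjusted p = 0.063). In mid-colon itself Krt14, the 1 member tested, was called at day 9 at 6.59 to 7.59 TPM against 3.27 to 5.04 TPM at day 0 (0.67 ± 0.19, adjusted p = 0.0148), where 43.4% of genes were called. That call was lost without mouse 1 (0.58, adjusted p = 0.0534) or mouse 13 (0.64, adjusted p = 0.0617). At days 3, 6, 14 and 20 it was not called by limma, with unadjusted p-values of 0.712, 0.195, 0.426 and 0.923, where 0.375%, 14.9%, 4.36% and 1.56% of genes were called.

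At days 14 and 20 the rectal samples of one day differed among themselves by orders of magnitude on the TPM scale. Krt5 was at 0.101, 151 and 108 TPM in mice 14 to 16 and at 70.9, 39.1 and 0.0290 TPM in mice 17 to 19. Krt14 was at 16.5, 380 and 274 TPM and at 233, 131 and 6.26 TPM in the same order. Krt17 was at 0.118, 32.0 and 49.5 TPM and at 21.4, 8.66 TPM and listed at 0. The rectum of mouse 14 and of mouse 19 therefore lay within or below the range of the uninjured rectum for these genes while the other 4 mice were high. Krt15 was at 0.568, 16.5 and 6.06 TPM at day 14 and at 15.9, 2.86 and 0.569 TPM at day 20, with the same low mice. No member was called at day 14 (15.8% of genes called) or day 20 (7.68%), and the unadjusted p in limma was under 0.05 for 2 members at day 14 and none at day 20.

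For Krt5, Krt14 and Krt17 each of these results turned on 1 library. Without mouse 14, day 14 gave log2 changes of 4.63 for Krt5 (adjusted p = 0.00215), 4.35 for Krt14 (adjusted p = 0.000372) and 4.63 for Krt17 (adjusted p = 5.36e-05). Without mouse 19, day 20 gave 3.37 for Krt5 (adjusted p = 0.0166), 3.47 for Krt14 (adjusted p = 0.00355) and 3.15 for Krt17 (adjusted p = 0.00251). Krt15 was not called without mouse 14 at day 14 (1.21, adjusted p = 0.154) or without mouse 19 at day 20 (0.75, adjusted p = 0.485). These mice are low for the members themselves, so the values without them describe the dependence and are not a second test. The squamous genes Trp63 and Krt13 also set mice 14 and 19 apart from the other 4, without the same order among those 4. Trp63 was listed at 0 in mice 14 and 19 and was at 0.654 to 3.06 TPM in the other 4. Krt13, a keratin of the upper layers of mucosal squamous epithelium, was at 7.80 and 1.28 TPM in mice 14 and 19 and at 72.8 to 210 TPM in the other 4. Leukocyte genes summed to 181 and 17.0 TPM in mice 14 and 19 and to 240 to 4550 TPM in the other 4, and colonic epithelium genes to 28100 and 19500 TPM against 15400 to 19700 TPM. The part of these tissues in the members' levels was not tested.

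The neo-epithelium expressed all 4 members at the order of magnitude of the anus. Over the 9 samples Krt14 was at a lowest 5129, a median 7651 and a highest 10925 TPM, and Krt5 at 1456, 2349 and 2963 TPM. Krt15 was at 151, 259 and 453 TPM and Krt17 at 254, 412 and 1348 TPM. Each member was higher in neo-epithelium than in the rectum of the same mouse in 9 of 9 mice. The log2 differences from rectum over days 9 to 20, with day as a covariate, were 6.57 ± 0.89 for Krt5 (adjusted p = 1.9e-05), 6.35 ± 0.66 for Krt14 (adjusted p = 9.45e-07), 6.05 ± 0.46 for Krt15 (adjusted p = 2.5e-08) and 5.57 ± 0.69 for Krt17 (adjusted p = 7.09e-06). Krt5, Krt15 and Krt17 passed the filter there through the neo-epithelium. All 4 were called higher, where 42.9% of genes were called and 20.9% called higher.

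Against the anus of the same days, the members divided. In anus over days 9 to 20 Krt14 was at a lowest 2468, a median 4998 and a highest 6611 TPM, and Krt5 at 920, 1401 and 2207 TPM. Krt14 was higher in neo-epithelium in 9 of 9 mice (0.67 ± 0.16, adjusted p = 0.00211, 1.59-fold), and Krt5 in 8 of 9 (0.65 ± 0.16, adjusted p = 0.0025, 1.57-fold), although the groups' ranges overlapped. Krt15 was at 302, 519 and 937 TPM in anus and was lower in neo-epithelium in 8 of 9 mice (−0.91 ± 0.23, adjusted p = 0.00291, to 0.533 of the anal level). Krt17 was at 221, 528 and 962 TPM in anus and was higher in neo-epithelium in 4 mice and lower in 5 (0.06 ± 0.22, adjusted p = 0.817). The counts of mice are paired, whereas the limma values come from a fit that leaves out the pairing by mouse. Thus 3 of 4 members were called, where 59.8% of all genes were called. Of those genes 5311 were higher and 2610 lower, which became 3918 and 3659 with TMM factors. That scaling moved the median gene from 0.18 to 0.03 on the log2 scale.

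**Figure D3:**
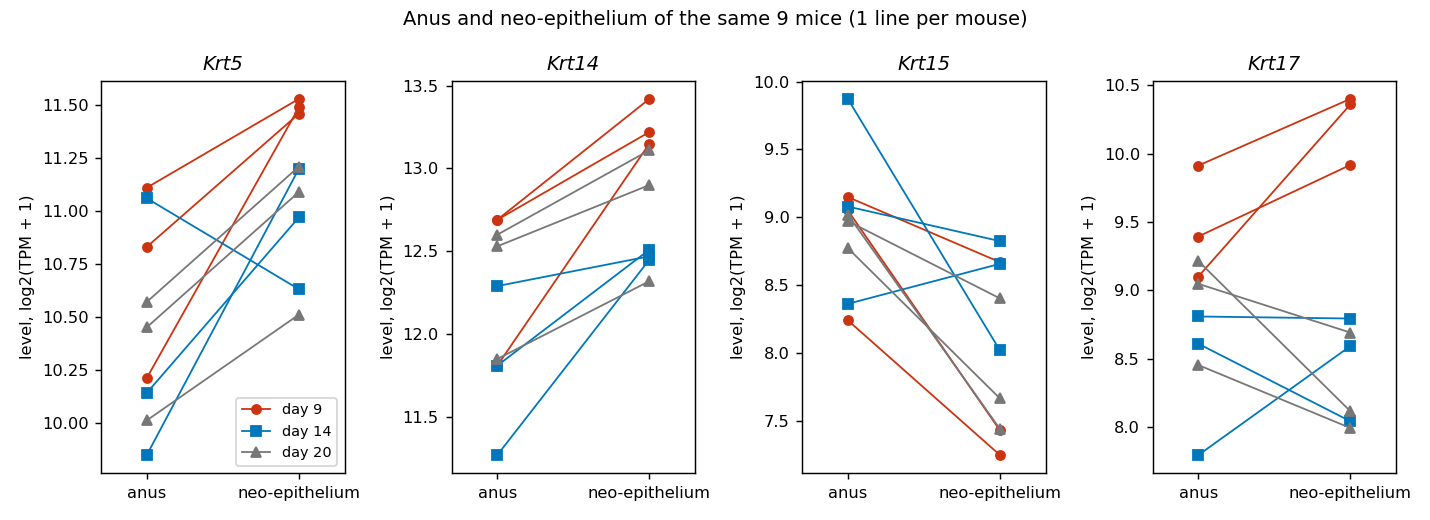
Level of each member on the log2(TPM + 1) scale (vertical axis, a different range in each panel) in anus and neo-epithelium of the same mouse, with 1 line per mouse and colour and marker for the day. Lines rise in 9 of 9 mice for Krt14 and 8 of 9 for Krt5, fall in 8 of 9 for Krt15, and for Krt17 rise in all 3 mice of day 9.

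Related gene lists were compared between neo-epithelium and anus, where 40.1% of all genes tested were called higher in neo-epithelium and 19.7% lower. Of the 11 basal layer and anchoring genes, 6 were higher in neo-epithelium and none lower, a share called near that of all genes, with a median log2 difference of 1.06 against 0.18 over all genes tested. Itga6, an integrin subunit of the hemidesmosome (a cell's anchor to the basement membrane), was higher by 1.06 ± 0.15 (adjusted p = 1.91e-05). Lamb3, a laminin chain of the basement membrane, was higher by 1.91 ± 0.24 (adjusted p = 4.95e-06). In uninjured mice both genes were lower in anus than in rectum, Lamb3 by −1.64 ± 0.29 (adjusted p = 0.000831). Of the 11 genes, 7 reached 1 TPM in every mid-colonic sample, so the list is not particular to squamous epithelium. Trp63 was at 18.1 to 49.0 TPM in neo-epithelium and at 29.8 to 50.6 TPM in anus and was not called. Of the 11 suprabasal and wound keratins tested, 1 was higher and 7 were lower in neo-epithelium, with a median of −1.48. Krt6a was the one that was higher (0.92 ± 0.17, adjusted p = 0.000174), Krt4, a mucosal suprabasal keratin, was lower (−1.48 ± 0.31, adjusted p = 0.000618), and Krt13 was not called, at 3722 to 9928 TPM against 5276 to 10980 TPM.

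Of the 6 simple epithelial and transition zone keratins, 5 were higher in neo-epithelium than in anus and 1 was lower. Krt8 was higher by 3.78 ± 0.58 (adjusted p = 3.47e-05), and its level in neo-epithelium ranged from 17.5 to 2473 TPM. Krt19 was higher by 1.98 ± 0.28 (adjusted p = 1.82e-05) and Krt20, of differentiated colonocytes, by 1.78 ± 0.31 (adjusted p = 0.000127). The colonic epithelium genes summed to 6.1 to 502 TPM in the neo-epithelium of day 9 and to 4340 to 10000 TPM in that of day 20. The part of colonic, hair follicle and skeletal muscle tissue in the differences between neo-epithelium and anus was not tested.

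Ratios between members were formed within a sample from TPM + 1. All members were above 100 TPM in the anal and neo-epithelial samples compared here, where library scaling and the pseudocount hardly enter. The log2 ratio of Krt15 to Krt14 was −4.80 ± 0.93 (SD, n = 9) in neo-epithelium and −3.22 ± 0.67 (SD, n = 9) in the anus of the same mice. The difference was −1.58 ± 0.52 (SD), and the ratio was lower in neo-epithelium in 9 of 9 mice (exact two-sided sign-flip permutation test, p = 0.0039, the smallest that 9 mice allow, adjusted p = 0.0156 over 4 ratios). The ratio of Krt17 to Krt14 was lower in 8 of 9 mice, by −0.60 ± 0.67 (SD, exact permutation p = 0.0312, adjusted p = 0.0625). That ratio was called without mouse 12 (−0.77, exact permutation adjusted p = 0.0156) and on coding transcripts alone (−0.85, exact permutation adjusted p = 0.0156). The ratio of the type II keratin Krt5 to its partner Krt14 was −1.72 ± 0.22 (SD) in neo-epithelium and −1.70 ± 0.28 (SD) in anus, a difference of −0.016 ± 0.28 (SD, exact permutation adjusted p = 0.891). On coding transcripts alone that difference was −0.26 ± 0.32 (SD, exact permutation adjusted p = 0.0625), lower in neo-epithelium in 7 of 9 mice against 3 of 9 on all transcripts. Krt5 to the sum of the 3 type I members differed by 0.11 ± 0.27 (SD, exact permutation adjusted p = 0.302).

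The Krt15 to Krt14 ratio also differed between days in the anus, which is given here as a description. In the uninjured anus it was −1.40 ± 0.29 (SD, n = 4). It was −2.49 ± 0.27 (SD, n = 3) at day 3, reached −5.24 ± 0.37 (SD, n = 3) at day 6 and stood at −3.40 ± 0.48 (SD, n = 3) at day 20. The 3 anal samples of day 6 lay between −5.67 and −4.99, below every other anal sample. In the neo-epithelium of day 9 it was −5.48 ± 0.87 (SD, n = 3). In rectum and mid-colon, where Krt15 or Krt17 was near or under 1 TPM in many samples, the pseudocount of 1 TPM pulls the ratio towards 0, and no rectal or mid-colonic ratio is compared. The ratio of Krt17 to Krt14 in neo-epithelium was −3.04 ± 0.18 (SD, n = 3) at day 9. It was −4.00 ± 0.42 (SD, n = 3) at day 14 and −4.51 ± 0.24 (SD, n = 3) at day 20. The day 9 samples lay above all later ones, and days 14 and 20 overlapped.

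**Figure D4:**
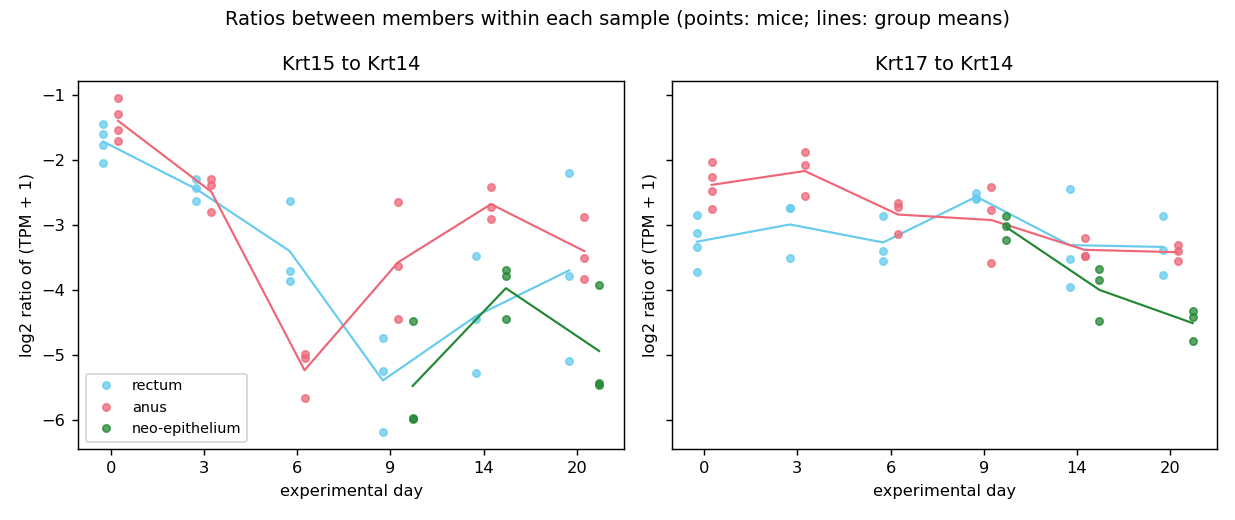
Log2 ratio of Krt15 to Krt14 and of Krt17 to Krt14, each from TPM + 1 (vertical axis), by experimental day (horizontal axis), with 1 point per mouse, colour for section and lines through group means. The anal Krt15 to Krt14 ratio is lowest at day 6, between −5.67 and −4.99, and the Krt17 to Krt14 ratio in neo-epithelium is lower at day 20 than at day 9 in every sample. Rectal points near or under 1 TPM are pulled towards 0 by the pseudocount, and mid-colon is not drawn.

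Within the neo-epithelium Krt17 had the clearest change with day. It was at 966, 1315 and 1348 TPM at day 9, at 443, 262 and 385 TPM at day 14 and at 254, 276 and 412 TPM at day 20. The day 9 samples lay above all later ones. Krt17 fell by 1.75 on the log2 scale at day 14 (SE 0.23, adjusted p = 0.0114) and by 1.96 at day 20 (SE 0.23, adjusted p = 0.00374), to 0.297 and 0.257 of the day 9 level. Krt14 was at 9070, 9568 and 10925 TPM at day 9, at 5668, 5851 and 5586 TPM at day 14 and at 5129, 7651 and 8819 TPM at day 20. It fell by 0.79 at day 14 (SE 0.11, adjusted p = 0.0123), and at day 20 its change of −0.48 ± 0.22 was not called (adjusted p = 0.149). Krt5 was at 2883, 2822 and 2963 TPM at day 9, at 1586, 2007 and 2349 TPM at day 14 and at 1456, 2365 and 2183 TPM at day 20, with changes of −0.56 ± 0.16 (adjusted p = 0.0565) and −0.56 ± 0.20 (adjusted p = 0.0808). Krt15 was at 406, 151 and 172 TPM at day 9, at 259, 453 and 403 TPM at day 14 and at 337, 173 and 202 TPM at day 20, and its ranges overlapped between all days.

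So 2 of 4 members were called at day 14, where 16.8% of genes were called, and 1 of 4 at day 20, where 26.2% were called. The day 14 calls were lost under some alternatives. Krt14 was not called with no filter (adjusted p = 0.0619) or without mouse 12 or 13 (adjusted p = 0.051 and 0.0641). Krt17 was not called without mouse 13 (−1.66, adjusted p = 0.0639), where no gene of the comparison was called. Krt5 was called at day 14 with TMM factors (adjusted p = 0.0309), with a filter of 5 TPM (adjusted p = 0.0492) and without mouse 14 (−0.41, adjusted p = 0.0442), and at day 20 without mouse 18 (−0.70, adjusted p = 0.0485). The difference between neo-epithelium and anus in the day 9 to day 20 change of Krt17 was −1.40 ± 0.38 (adjusted p = 0.074, and 0.0365 when blocked by mouse), where 2.75% of genes were called. None of the other 3 members was called in that interaction, and in limma none of them had an unadjusted p under 0.05. Over the same days of neo-epithelium, leukocyte genes went from a summed 6800 to 17100 TPM at day 9 to 489 to 5440 TPM at day 20, and fibroblast genes from 2050 to 3030 TPM to 490 to 1010 TPM. The part of these cells in the change of Krt17 was not tested.

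Krt14 and Krt15 each have a second, shorter transcript in the table that is not annotated as coding. For Krt14 it is ENSMUST00000137265, a processed transcript at chr11:100203162-100206030, and 94.5% of its 75-base windows also lie in the coding transcript. It took 36.4% to 50.7% of the gene's TPM in the anus of day 0, 8.80% to 20.0% in that of day 20 and 0.0312% to 21.2% in neo-epithelium. The share was lower in neo-epithelium than in the anus of the same mouse in 8 of 9 mice. On the coding transcript alone Krt14 was at 768 to 1308 TPM in the anus of day 0, 3371 to 5113 TPM in that of day 20 and 4494 to 9753 TPM in neo-epithelium. In mid-colon the coding transcript was at 0.411 to 7.64 TPM, with a median of 1.83 TPM. The Krt15 transcript ENSMUST00000148502 is annotated as a retained intron, and 89.1% of its windows lie in the coding transcript.

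**Figure D5:**
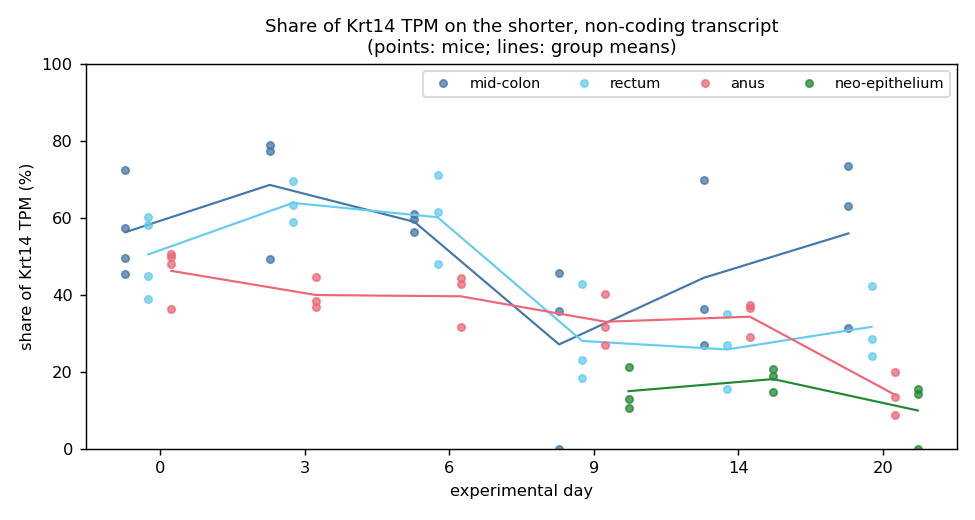
Share of the Krt14 TPM assigned to the shorter transcript ENSMUST00000137265 in percent (vertical axis) by experimental day (horizontal axis), with 1 point per mouse, colour for section and lines through group means. The anal share is 36.4% to 50.7% at day 0 and 8.80% to 20.0% at day 20, and the neo-epithelial samples lie at or under 21.2%.

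The genes whose log2 levels were most like those of each member over the 66 samples were found among 12730 genes with a mean of at least 1 TPM. Samples of one mouse and of one section are not independent, so the correlations are descriptions. Krt6a was nearest to both Krt5 (Pearson r = 0.996) and Krt14 (r = 0.989), and it shares read windows with Krt5. Within the 9 neo-epithelial samples the r with Krt6a was 0.920 for Krt5 and 0.892 for Krt14, and within the 19 anal samples it was 0.494 and 0.638. Krt6b, Aqp3 and Tgm1 were also among the 5 nearest for both members, at 0.982 to 0.986. For Krt15 the nearest were Calml3 (r = 0.989), Lypd3, Dapl1, Wnt7b and Col17a1, a hemidesmosomal collagen. The r of these 5 genes with Krt15 was only −0.234 to 0.369 within neo-epithelium and −0.305 to 0.297 within anus. For Krt17 the nearest included Aqp3 (r = 0.982), Col17a1, Acsbg1 and Tgm1. The high values over all samples come from sections that differ greatly, and they did not hold for every gene within neo-epithelium, where r with Krt6b was −0.171 for Krt5 and −0.007 for Krt14.

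Between the members the same contrast appeared. Krt5 and Krt14 had r = 0.993 over 66 samples, 0.885 over the 19 anal samples and 0.839 over the 9 neo-epithelial ones. Krt14 and Krt15 had r = 0.952 over 66 samples but −0.559 within anus and −0.641 within neo-epithelium. Krt17 went with Krt14 at 0.986 over all samples, 0.762 in anus and 0.801 in neo-epithelium. Among these 4 genes Krt15 was the one with negative r to each of the others within both squamous sections.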

How the data were processed

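The authors deposited 1 table of TPM per Ensembl transcript, with no counts. The submitters' processing notes name CASAVA, kallisto and mm10 without versions or roles. Rows without values (37344 of 126860) and 1318 repeats of a transcript were dropped, and TPM was summed per gene, without 1284 transcripts that had no gene.

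Models used limma 3.58.1 (R 4.3.3) on log2(TPM + 1) with an intensity trend, on the groups compared, for genes at 1 TPM or more in at least the number of samples in the smaller group. Fits were also run on simulated data with independent noise in each sample. Those data held no correlation within a mouse, so they cannot show its effect, and their outcome is not given here. The main fits did not pair samples of a mouse, and the mouse as a replicate block was an alternative. Ratios used exact sign-flip tests over mice (512 patterns). TMM factors were computed here (trims of 30% and 5%). Samples of a mouse come from the same animal per the labels, and their deviations correlated at a mean r of 0.0516 (anus and rectum, day 0) to 0.258 (neo-epithelium and rectum).

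Members, lists and the naming rule (members, the 3 most abundant genes of each list, Trp63 and the 5 genes most like each member) were chosen with earlier results of these data known. Krt16 and Krt75 were named after their values were seen. Some genes that the rule names are not reported here. Sequences and coordinates are from GENCODE M21. Python 3.11.15, numpy 2.4.6, pandas 2.3.3, scipy 1.17.1 and matplotlib 3.10.9 were used.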

Additional observations from a re-analysis of the deposited data

Results flagged for a closer look

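The anal sample of mouse 1 at day 0 stood apart from the other 3 uninjured anal samples for 2 members. Its Krt5 level was 8.83 on the log2(TPM + 1) scale, against 10.09 to 10.16 in mice 2 to 4. Its Krt14 level was 10.24, against 11.25 to 11.35. In each case the gap to the nearest other sample took more than 0.829 of the group's range, Dixon's critical value for 4 samples. Sets of 4 values were examined 24 times, and chance passes that value in about 1 of 20.

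The day 9 change of Krt17 against day 0 differed between rectum and mid-colon by 3.37 ± 0.73 on the log2 scale (limma interaction term, adjusted p = 0.0113). The rectal values were 55.7, 9.22 and 6.70 TPM, and the mid-colonic ones 0.276 to 0.397 TPM. Krt17 was under 1 TPM in every mid-colonic sample and passed the filter only because of the rectal samples of day 9, where it was high. With mid-colon that low on both days, the term largely repeats the rectal rise and is not a second test of it. With a pseudocount of 0.1 the interaction term was not called (4.35, adjusted p = 0.063).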

How the results depend on the processing

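With no TPM filter, the number of genes called went from 216 to 35 for rectum against mid-colon at day 0, and against day 0 from 45 to 3, 1785 to 1031, 529 to 240 and 189 to 21 in mid-colon at days 3, 6, 14 and 20. It went from 2017 to 1192 and 973 to 217 in rectum at days 14 and 20, and from 6 to 0, 692 to 379, 588 to 259 and 201 to 56 in anus at days 3, 9, 14 and 20. In neo-epithelium at day 14 it went from 2207 to 1373, and for the neo-epithelium and anus interaction from 398 to 236. With a filter of 5 TPM it was 119 for rectum against mid-colon, 318 in mid-colon at day 14 and 3 in anus at day 3. With TMM factors it was 104 for rectum against mid-colon, 136, 1208 and 588 in mid-colon at days 3, 14 and 20, 1649 in rectum at day 20, 2, 1157 and 305 in anus at days 3, 9 and 20, and 610 for the neo-epithelium interaction. A pseudocount of 0.1 took the rectum and mid-colon interaction from 885 to 444.

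With the mouse as a replicate block, 979 genes were called for rectum against mid-colon and 1025 for the neo-epithelium interaction. The block changed the call of 1 member, Krt17 in that interaction (−1.40, so 1 member was called), and of no other.

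TMM factors moved the split of genes higher and lower by over 10 percentage points. It went from 183 and 33 to 45 and 59 for rectum against mid-colon, from 590 and 1195 to 1113 and 820 and from 3264 and 2089 to 3299 and 3047 in mid-colon at days 6 and 9, from 1455 and 4690 to 2471 and 2065 and from 4404 and 2624 to 3819 and 3768 in rectum at days 6 and 9, and from 804 and 1213 to 1338 and 1257 in rectum at day 14. In rectum at day 3 it went from 185 and 633 to 299 and 572. In anus it went from 1186 and 874 to 1210 and 1304 at day 6 and from 311 and 277 to 276 and 410 at day 14, and in neo-epithelium at day 20 from 1335 and 2124 to 1842 and 1481. The median gene moved by 0.27 or less.

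The number of members called became 0 for rectum against mid-colon with no filter, with TMM factors and on coding transcripts, 0 in rectum at day 6 with a filter of 5 TPM (which left Krt15 untested), and 0 in the rectum and mid-colon interaction with a pseudocount of 0.1. It became 1 in anus at day 9 with TMM factors and on coding transcripts, 1 in anus at day 20 on coding transcripts, and 1 in neo-epithelium at day 14 with no filter. Changes of sign were all of values not called. Krt14 was at 0.22 in rectum at day 6 and Krt17 at −0.11 between neo-epithelium and anus with TMM factors, and Krt15 in the neo-epithelium interaction at 0.02 with TMM factors and 0.10 on coding transcripts. On coding transcripts Krt14 was at 0.06 and 0.08 in mid-colon at days 14 and 20, the ratio of Krt5 to the summed type I members at −0.07, and the Krt17 to Krt14 ratio was called at −0.85. The cause was not tested.

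Leaving out 1 replicate gave 1 to 166 genes called for rectum against mid-colon, 7 to 71, 596 to 5248, 62 to 1365 and 31 to 1200 in mid-colon at days 3, 6, 14 and 20, 417 to 1282, 386 to 5165 and 52 to 2873 in rectum at days 3, 14 and 20, and 0 to 12, 876 to 2130, 315 to 827, 162 to 557 and 25 to 237 in anus at days 3, 6, 9, 14 and 20. The ranges were 0 to 2984 and 1021 to 4122 in neo-epithelium at days 14 and 20 (0 and 1021 without mouse 13), 26 to 694 for the neo-epithelium interaction and 340 to 1187 for the rectum and mid-colon interaction. Members called ranged from 0 to 3 for rectum against mid-colon, in rectum at days 14 and 20 and in neo-epithelium at day 14, from 0 to 2 in rectum at day 6, from 1 to 2 in neo-epithelium at day 20, and from 0 to 1 in mid-colon at day 9, rectum at day 3 and anus at days 9 and 20. Uncalled values that changed sign ranged for Krt14 from −0.33 to 0.13 and −0.68 to 0.44 in mid-colon at days 3 and 20 and from −0.49 to 0.37 in rectum at day 6, and for Krt15 from −0.53 to 1.21 and −0.97 to 0.75 in rectum at days 14 and 20, −0.23 to 0.50 in neo-epithelium at day 20 and −0.35 to 0.22 in its interaction. For Krt17 they ranged from −0.65 to 0.05 and −0.15 to 0.47 in anus at days 14 and 20 and from −0.09 to 0.21 between neo-epithelium and anus, and for Krt5 from −0.37 to 0.06 in the interaction. The Krt17 to Krt14 ratio ranged from −0.77 to −0.50 and the Krt5 to Krt14 ratio from −0.05 to 0.06.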
